A study of Mus musculus with 2 samples.

Results

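The 9 genes described here are 5 inflammatory cytokines (Il1a, Il1b, Tnf, Il18 and Il16) and 4 chains of cytokine receptors (Il10ra, Il6ra, Tnfrsf1b and Il10rb), chosen by symbol from the 31053 genes counted in each library, and all 9 were found. Their mRNA was followed in sorted cortical CD45+CD11b+ cells of male 5xFAD hemizygous mice on the C57BL/6J strain, which carry human amyloid precursor protein and presenilin transgenes driven by a neuronal promoter and deposit amyloid in the brain. Mice were 5.5 months old, and cells were sorted as singlets negative for the dead-cell dye SYTOX and for Ly6G. Both groups were given Visudyne (5 uL), a light-activated drug, into the cisterna magna at 4 months, and the injection was repeated 3 weeks later. The control group received no light, and in the photoconversion group each injection was followed by 5 steps of 689-nm red light through the skull, meant to ablate meningeal lymphatic vessels. Tissue was taken 3 weeks after the last injection, and the question addressed is how loss of those vessels bears on cortical microglia.

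Each group is 1 library made from 3 pooled mice. There is therefore no replicate, no test of the treatment was possible, and every interval below is a 95% exact interval that covers counting error only. Barcodes were taken as cells from 200 detected genes upward, provided that mitochondrially encoded genes made up no more than 10% of their UMIs (unique molecular identifiers, each standing for a captured mRNA molecule). The control library then had 555 cells (median 2670 UMIs, summed 2422711) and the photoconversion library 317 (median 3410 UMIs, summed 1816177). Of the barcodes, 27 occurred in both libraries, and 0 of them were kept in both. Microglia markers were abundant, with 3 or more UMIs in 544 control and 312 photoconversion cells. Levels are given as CPM, the UMIs of a gene per 1000000 UMIs of the cells summed. With UMIs counted from tagged transcripts and no length scale, levels are compared between groups of cells and not between genes.

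Cells were split by which of Cst7 and P2ry12 had more UMIs. P2ry12, a purine receptor, marks homeostatic microglia, and Cst7, a cysteine protease inhibitor, is a marker of the disease-associated state seen around amyloid. In the control library 207 cells were Cst7-dominant, 290 P2ry12-dominant and 58 tied, and in the photoconversion library 157, 133 and 27. The split is a cut through a range: 20.7% of control and 18.3% of photoconversion cells lay within 1 UMI of it. Depth moved with the class. Median UMIs were 4655 in Cst7-dominant and 2206.5 in P2ry12-dominant control cells, and 5852 and 2739 in the photoconversion library.

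Interleukin-1 and tumour necrosis factor start inflammatory signalling through adaptors that activate NF-kB, and microglia are a main source of both in the brain. IL-18, like IL-1 beta, is made as a precursor that caspase-1 cleaves in the inflammasome, so that mRNA alone does not report release. IL-6 and IL-10 act through receptor chains that signal by JAK kinases and STAT factors, with IL-10 known for restraining inflammatory output of myeloid cells.

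The promoters of the 3 early-response cytokines are shown because these were the members with the fewest or most unevenly spread UMIs, described below. Each is the 250 bases before the RefSeq transcription start in GRCm38.p6, written 5′ to 3′ on the gene's strand, and all 3 genes lie on the minus strand. The windows are chr2:129309973-129310222 for Il1a, chr2:129371140-129371389 for Il1b and chr17:35202008-35202257 for Tnf. Capitals mark TATAAA, the core of a TATA box, which places the start of transcription in many inducible genes.
Il1a: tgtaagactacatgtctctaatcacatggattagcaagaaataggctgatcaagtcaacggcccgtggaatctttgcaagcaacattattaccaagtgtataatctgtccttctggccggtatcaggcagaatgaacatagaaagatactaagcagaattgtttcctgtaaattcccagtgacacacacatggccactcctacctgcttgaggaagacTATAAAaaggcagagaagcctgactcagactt
Il1b: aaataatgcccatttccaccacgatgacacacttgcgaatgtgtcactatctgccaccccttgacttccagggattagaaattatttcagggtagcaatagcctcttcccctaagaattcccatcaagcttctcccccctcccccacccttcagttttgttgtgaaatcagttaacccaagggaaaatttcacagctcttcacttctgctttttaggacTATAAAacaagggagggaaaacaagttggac
Tnf: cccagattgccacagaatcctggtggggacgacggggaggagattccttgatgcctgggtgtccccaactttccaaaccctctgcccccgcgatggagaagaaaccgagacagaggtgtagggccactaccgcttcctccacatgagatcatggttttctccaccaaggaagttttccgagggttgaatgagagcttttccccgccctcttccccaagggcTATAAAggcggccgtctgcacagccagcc
TATAAA lay on the gene strand from -32 to -27 in Il1a, from -31 to -26 in Il1b and from -29 to -24 in Tnf, counted from the start. RefSeq promoter entries were matched for 7 of the 9 members, with 9 start sites in all, and both strands were searched. Apart from these 3, TATAAA was found in Il18 alone, on the other strand from -175 to -170. Of 32851 mouse promoter windows of the same length in that table, 12.4% held TATAAA on either strand.

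Il1a, encoding IL-1 alpha, lies on chromosome 2 from 129299610 to 129309972 (GENCODE, GRCm38), 54597 bases from Il1b. It had 100 UMIs in 69 of 555 control cells (12.4%, interval 9.80% to 15.5%) and 66 UMIs in 46 of 317 photoconversion cells (14.5%, 10.8% to 18.9%). In control, its level was 34.1 CPM (25.3 to 44.9) in Cst7-dominant and 57.1 CPM (42.1 to 75.7) in P2ry12-dominant cells. In the photoconversion library the same classes had 25.2 CPM (17.3 to 35.4) and 68.4 CPM (46.8 to 96.6). The level was thus lower in Cst7-dominant cells of each library, with CPM ratios of 0.597 (0.393 to 0.906) and 0.368 (0.219 to 0.618). Of the 66 photoconversion UMIs, 12 came from 1 P2ry12-dominant cell of 16908 UMIs. It also held 716 microglia marker UMIs, 14 UMIs of the monocyte marker Plac8 and 83 of the antigen-presentation gene H2-Aa. Without the cells holding 3 or more monocyte or border macrophage marker UMIs, a P2ry12-dominant photoconversion level of 43.1 CPM remained, and the class ratio there was 0.584 (0.322 to 1.09).

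Il1b, encoding IL-1 beta, lies on chromosome 2 from 129364570 to 129371139. It had 57 UMIs in 23 control cells (4.14%, 2.64% to 6.15%) and 14 UMIs in 9 photoconversion cells (2.84%, 1.31% to 5.32%). By class, control held 26 UMIs in Cst7-dominant cells (17.7 CPM), 16 in P2ry12-dominant cells (19.0 CPM) and 15 in tied cells (130 CPM). Photoconversion held 13 (9.92 CPM), 1 (2.14 CPM) and 0. Il1b was lower in the photoconversion library in each class, and over all kept cells its CPM ratio was 0.328 (0.169 to 0.596). Intervals of Il1b ratios treat UMIs as independent. Several UMIs often shared 1 cell, as given next, so these intervals are too narrow even for counting error. The intervals of the shares of positive cells overlapped between the libraries.

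The Il1b UMIs were concentrated in few cells. Of the 23 positive control cells, 12 held 3 or more UMIs, against 1 of 9 in the photoconversion library, where a Cst7-dominant cell held 6 of the 14. Cells with monocyte or border macrophage markers moved with this result: 12 control and 2 photoconversion cells had 3 or more UMIs of either list. The 12 control cells held 18 of the 57 UMIs (31.6%). Of these, 9 were in a tied cell with 118 microglia marker UMIs, 80 H2-Aa UMIs and 4 border macrophage marker UMIs. The other 9 were in 3 cells with Plac8. Over all control cells monocyte markers summed to 75.9 CPM (4 of 5 detected, Vcan at 0) and border macrophage markers to 39.6 CPM (6 of 7, Lyve1 at 0). In the photoconversion library the sums were 16.0 CPM (3 of 5, Vcan and Chil3 at 0) and 9.91 CPM (3 of 7, with Cd163, Lyve1, F13a1 and Cbr2 at 0). Without the marker cells Il1b was 16.6 CPM in control and 7.83 CPM in photoconversion, a ratio of 0.470 (0.236 to 0.885). Most other positive cells carried many microglia marker UMIs. A P2ry12-dominant control cell with 4 Il1b UMIs, for instance, had 174 microglia marker UMIs, 65 of the chemokine gene Ccl3, 51 of Ccl4 and 4 of Il1a.

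**Figure D1:**
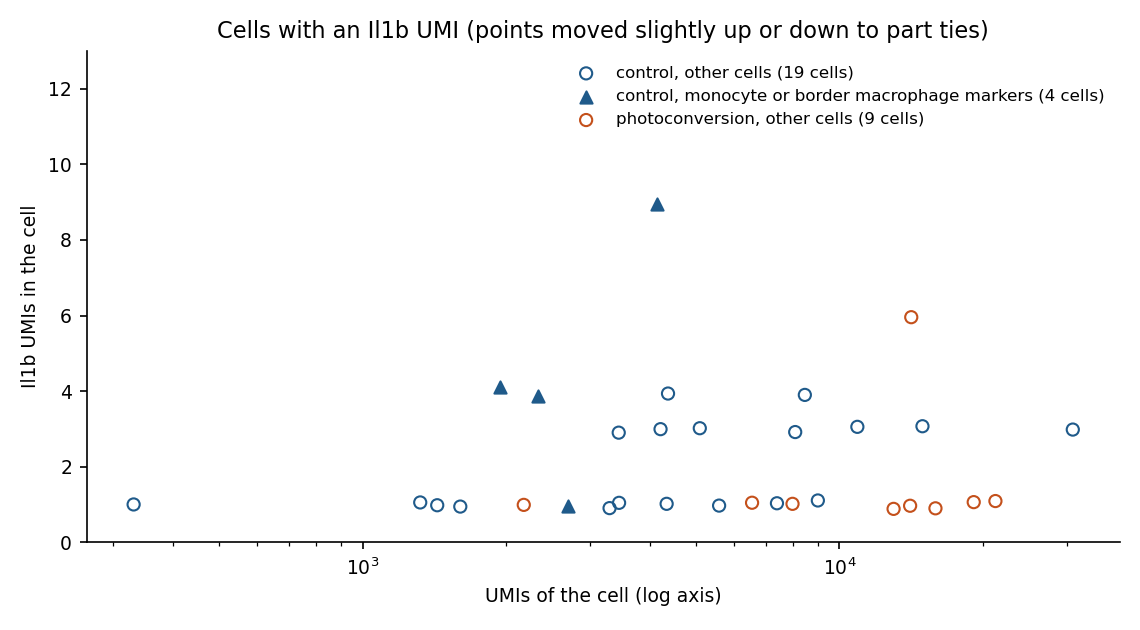
Every kept cell with an Il1b UMI, by the UMIs of the cell (log x axis) and its Il1b UMIs (y axis), for control (23 cells) and photoconversion (9 cells); filled triangles are cells with 3 or more UMIs of monocyte or of border macrophage markers. The cell with most UMIs, 9, is a control marker cell, and 8 of the 9 photoconversion cells hold 1 UMI each.

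Tnf, encoding tumour necrosis factor, lies on chromosome 17 from 35199381 to 35202007. It had 9 UMIs in 8 control cells (1.44%, 0.624% to 2.82%) and 7 UMIs in 6 photoconversion cells (1.89%, 0.698% to 4.07%). By class, Cst7-dominant cells held 3 UMIs in control and 1 in photoconversion, and P2ry12-dominant cells 4 and 6. A difference between libraries was not detectable at this depth, with a CPM ratio of 1.04 (0.328 to 3.13). Il1a and Il1b shared 3 control cells and 1 photoconversion cell, Il1a and Tnf 2 and 2, and Il1b and Tnf 1 and 0. In control, Il1a was in 3 of 23 Il1b cells and 2 of 8 Tnf cells, against 12.4% of all kept cells. In photoconversion it was in 1 of 9 and 2 of 6, against 14.5%. With so few cells, these counts do not show whether the 3 early-response cytokines avoid each other. At least 1 of them was detected in 16.9% of the control cells, with an interval of 13.9% to 20.3%, and in 18.3% of the photoconversion cells, with an interval of 14.2% to 23.0%.

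Il18, encoding IL-18, lies on chromosome 9 from 50554827 to 50581840. It had 80 UMIs in 66 control cells (11.9%, 9.32% to 14.9%) and 56 UMIs in 43 photoconversion cells (13.6%, 9.99% to 17.8%). Levels in Cst7-dominant and P2ry12-dominant cells were 29.3 CPM (21.2 to 39.5) and 41.7 CPM (29.0 to 57.9) in control, and 23.7 CPM (16.1 to 33.6) and 53.5 CPM (34.6 to 78.9) in photoconversion. The class ratio was 0.704 (0.440 to 1.13) in control and 0.443 (0.253 to 0.782) in photoconversion, so that the intervals of the control classes overlapped. The P2ry12-dominant cells with monocyte markers held 6 of the 25 UMIs of that class in photoconversion, and without them its level was 43.1 CPM and the class ratio 0.549 (0.300 to 1.03).

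Il16, whose product is a chemoattractant cytokine for CD4-bearing cells cut from a larger precursor, lies on chromosome 7 from 83642825 to 83745726. It had 134 UMIs in 96 control cells (17.3%, 14.2% to 20.7%) and 82 UMIs in 60 photoconversion cells (18.9%, 14.8% to 23.7%). Cst7-dominant and P2ry12-dominant levels were 23.9 CPM (16.6 to 33.2) and 107 CPM (86.1 to 132) in control, and 29.8 CPM (21.2 to 40.7) and 83.4 CPM (59.3 to 114) in photoconversion. The class intervals did not overlap in either library, and the ratios were 0.223 (0.146 to 0.333) and 0.357 (0.223 to 0.571).

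Il10ra, the ligand-binding chain of the IL-10 receptor, lies on chromosome 9 from 45253837 to 45269149. It had 254 UMIs in 172 control cells (31.0%, 27.2% to 35.0%) and 166 UMIs in 95 photoconversion cells (30.0%, 25.0% to 35.3%). Levels in Cst7-dominant and P2ry12-dominant cells were 47.7 CPM (37.2 to 60.3) and 207 CPM (177 to 240) in control. In photoconversion they were 66.4 CPM (53.2 to 81.9) and 167 CPM (132 to 208). Cst7-dominant cells were lower in both libraries, with ratios of 0.230 (0.172 to 0.306) and 0.398 (0.290 to 0.548).

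Il10rb, the shared signalling chain that pairs with Il10ra and with other receptors of the IL-10 and lambda interferon families, lies on chromosome 16 from 91406164 to 91425834. It had 418 UMIs in 229 control cells (41.3%, 37.1% to 45.5%) and 277 UMIs in 145 photoconversion cells (45.7%, 40.2% to 51.4%). Class levels were 148 CPM (129 to 169) and 217 CPM (186 to 250) in control, and 125 CPM (107 to 146) and 227 CPM (186 to 274) in photoconversion, the Cst7-dominant value first. The class ratios were 0.683 (0.558 to 0.836) and 0.552 (0.430 to 0.712). Counted per cell and not as CPM, the order turned: Cst7-dominant cells held 1.05 Il10rb UMIs each in control and 1.04 in photoconversion, against 0.628 and 0.797 in P2ry12-dominant cells. In control the order per cell turned also for Il1a (0.242 against 0.166), Il18 (0.208 against 0.121), Tnfrsf1b (0.203 against 0.169), Il1b (0.126 against 0.0552) and Tnf (0.0145 against 0.0138), and in photoconversion for Il18 (0.197 against 0.188). Both chains of the IL-10 receptor were detected together in 97 control and 57 photoconversion cells, which is 56.4% and 60.0% of the cells with Il10ra. Those cells were deep, with median UMIs of 4746 and 6359, against 2670 and 3410 in all kept cells. In control cells with another member, Il10rb was found in 51.3% (Tnfrsf1b) to 63.6% (Il18). In photoconversion the range was 55.6% (Il1b) to 83.3% (Tnf). The shares for Il10ra lie within these ranges, so they do not show that the chains go together.

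Il6ra, the ligand-binding chain of the IL-6 receptor, lies on chromosome 3 from 89864059 to 89913196. It had 250 UMIs in 157 control cells (28.3%, 24.6% to 32.2%) and 119 UMIs in 80 photoconversion cells (25.2%, 20.5% to 30.4%). Class levels were 60.0 CPM (48.1 to 73.9) and 184 CPM (157 to 216) in control, and 37.4 CPM (27.7 to 49.5) and 135 CPM (104 to 172) in photoconversion, the Cst7-dominant value first. The class ratios were 0.325 (0.247 to 0.425) and 0.278 (0.187 to 0.410). Il6ra was lower per cell too, at 0.425 against 0.534 UMIs in control and 0.312 against 0.474 in photoconversion. Il6st, the signal-transducing chain that IL-6 needs beside Il6ra, had 159 UMIs in 116 control cells and 117 UMIs in 75 photoconversion cells.

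Tnfrsf1b, the TNF receptor also called TNFR2, lies on chromosome 4 from 145213463 to 145246870. It had 97 UMIs in 76 control cells (13.7%, 10.9% to 16.8%) and 59 UMIs in 50 photoconversion cells (15.8%, 11.9% to 20.3%). Class levels were 28.6 CPM (20.6 to 38.7) and 58.3 CPM (43.1 to 77.1) in control, and 19.1 CPM (12.4 to 28.2) and 72.7 CPM (50.4 to 102) in photoconversion, the Cst7-dominant value first. The ratios were 0.491 (0.317 to 0.757) and 0.262 (0.150 to 0.453). Tnfrsf1a, the other TNF receptor, had 357 UMIs in 220 control and 226 UMIs in 128 photoconversion cells.

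Some of these genes overlap others in the annotation. Antisense genes lie opposite Il1b (Il1bos) and Il6ra (Gm42809), Gm14023 lies opposite Il1a, and Gm21970 shares the strand of Il10rb. Other overlaps lie at Il18 (Bco2 and Tex12), Il16 (2310044K18Rik, Stard5 and Phgdh-ps1) and Il10ra (Gm20612 and Mir7086). Whether counting used strand is not given in the sources used here. It is therefore not known whether reads of these genes and their partners were kept apart.

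**Figure D2:**
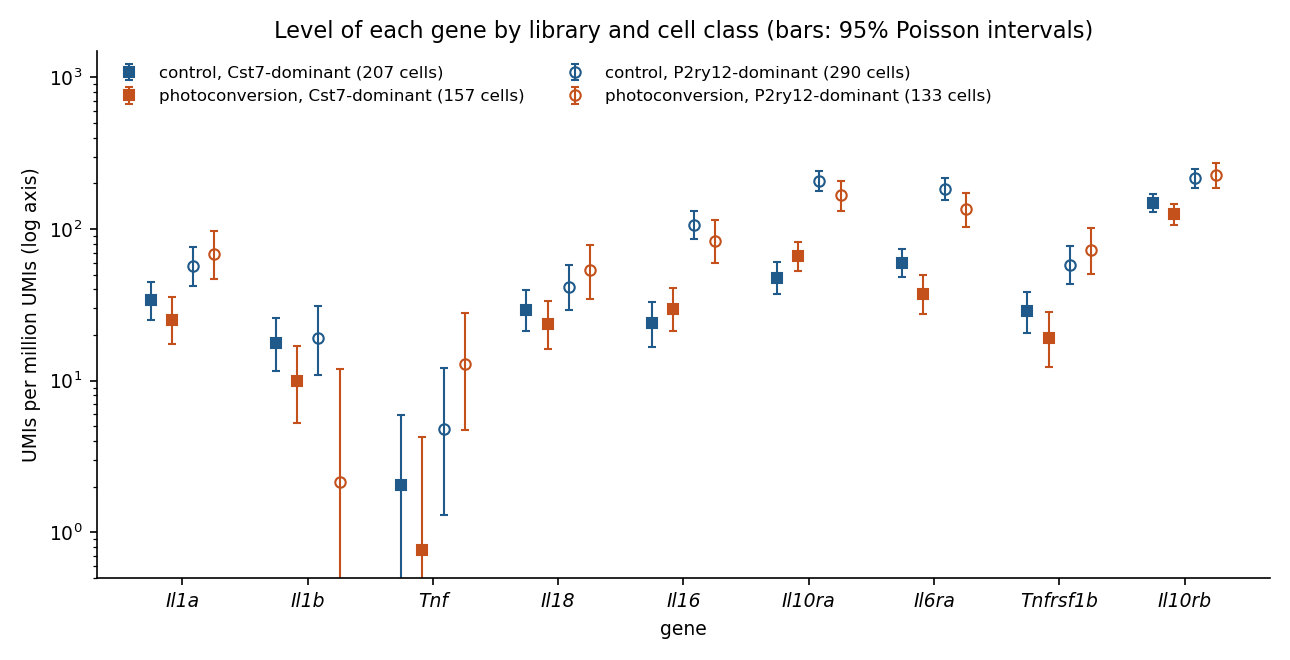
Level of each gene in CPM (log y axis) for Cst7-dominant (squares) and P2ry12-dominant cells (circles) of the control (blue) and photoconversion (orange) libraries, with 95% Poisson intervals, cut off where they pass the lower edge. The squares lie below the circles for every gene in both libraries except Il1b in photoconversion, where the P2ry12-dominant value rests on 1 UMI.

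Across the classes as a whole, 7 members had at least 50 UMIs in the sums compared, in each library, and Il1b and Tnf did not. In control, 5 of the 7 were at least 1.5-fold lower in Cst7-dominant than in P2ry12-dominant cells and 0 were higher. Of all 4314 genes counted in this way, 32.2% were lower and 11.3% higher by that fold, 43.5% in all. In photoconversion 7 of 7 were lower, against 27.6% lower and 13.6% higher of 3422 genes, 41.2% in all. The median log2 ratio of the 9 members was -1.02 in control and -1.44 in photoconversion, beside -0.29 and -0.17 over all genes counted. Scaling by edgeR's TMM or by the median of ratios raised all log2 class ratios by 0.36 and 0.39 in control and by 0.35 and 0.35 in photoconversion. Under these scalings the 7 members stayed lower in Cst7-dominant cells, with Il18 at -0.12 and Il10rb at -0.16 as the control values nearest to 0.

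The share of cells with a UMI gave another picture until depth was made equal. With all UMIs, Il1a was detected in 15.9% of Cst7-dominant and 11.7% of P2ry12-dominant control cells, Il18 in 16.9% and 10.0%, and Il10rb in 47.8% and 40.7%. After each cell was thinned to 1000 UMIs, leaving out 24 and 58 shallower cells, the shares were 2.19% and 4.31% for Il1a, 3.28% and 4.31% for Il18, and 11.5% and 21.1% for Il10rb. Il10ra, at 26.1% and 39.0% before, was at 4.37% (1.91% to 8.43%) and 18.5% (13.8% to 24.1%) after thinning. Il6ra, at 24.6% and 34.1% before, was at 4.37% and 18.1%. In photoconversion, with 15 and 14 cells left out, the thinned shares were 5.63% and 10.9% for Il10ra, 5.63% and 16.0% for Il6ra, and 3.52% and 2.52% for Il1a, the last with 5 and 3 positive cells. The intervals of the thinned shares stood apart between classes for Il10ra, Il6ra and Tnfrsf1b in control and overlapped for Il6ra, Il10ra and Il1a in photoconversion.

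**Figure D3:**
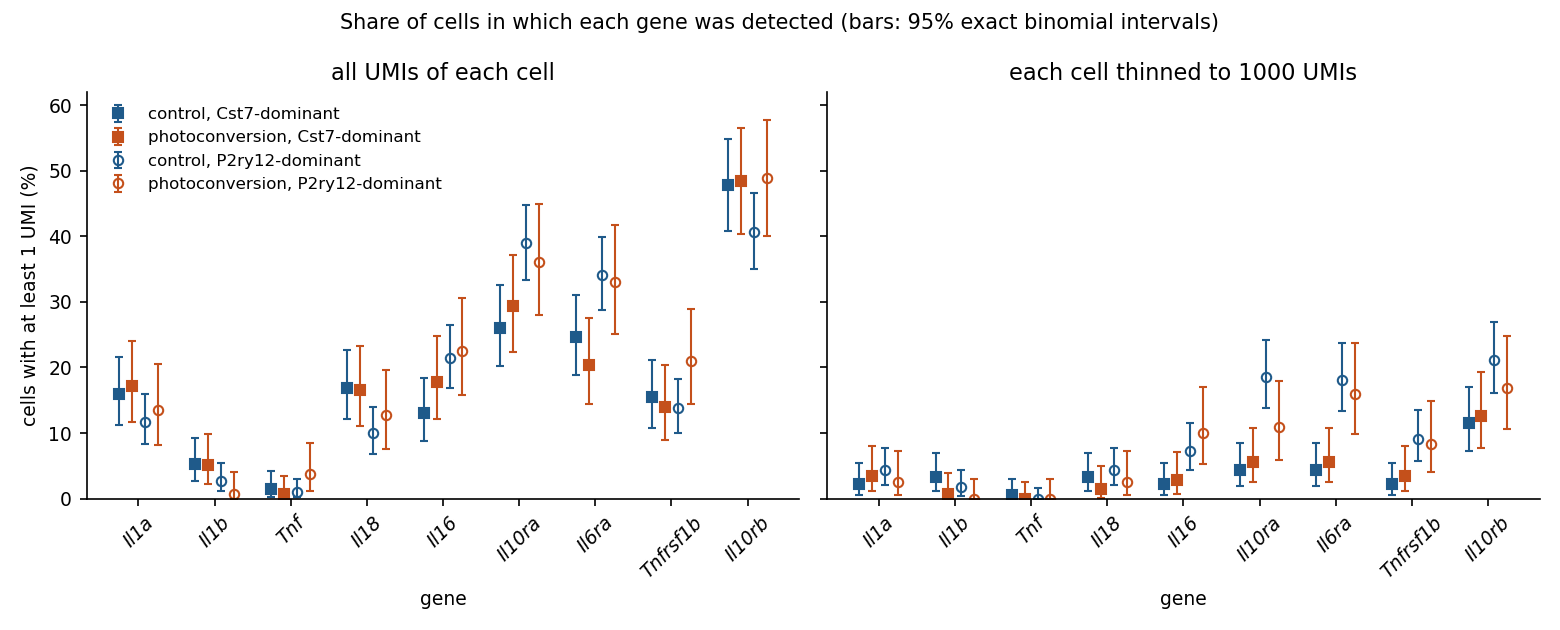
Share of cells with at least 1 UMI of each gene (y axis, percent), with all UMIs (left) and with each cell thinned to 1000 UMIs (right), by library and class with 95% exact binomial intervals. On the left Il10rb is detected in 47.8% of Cst7-dominant and 40.7% of P2ry12-dominant control cells, and on the right in 11.5% and 21.1%.

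Within bands of like depth Il10ra and Il6ra kept the order of the classes. In cells of 3000 to 9999 UMIs, Il10ra was at 49.0 CPM (30.4 to 75.0) in 71 Cst7-dominant and 188 CPM (153 to 227) in 107 P2ry12-dominant control cells. In photoconversion the values were 52.0 CPM (30.3 to 83.2) in 58 and 171 CPM (125 to 228) in 52 cells. Il6ra in the same bands was at 79.4 CPM (55.0 to 111) and 158 CPM (127 to 195) in control, and at 55.0 CPM (32.6 to 86.9) and 145 CPM (103 to 198) in photoconversion. Of the 6 bands from 1000 UMIs upward in the 2 libraries, P2ry12-dominant cells were higher in 6 for Il10ra and Il6ra, in 5 for Tnfrsf1b, Il10rb and Il1a, in 4 for Il16, Il18 and Tnf, and in 2 for Il1b. Tnfrsf1b turned in control cells of 3000 to 9999 UMIs, at 35.0 CPM (19.6 to 57.8) in Cst7-dominant and 32.8 CPM (19.4 to 51.8) in P2ry12-dominant cells. Il10rb turned in control cells of 10000 UMIs or more, at 155 CPM (131 to 183) and 99.0 CPM (11.98 to 357). That band held only 2 P2ry12-dominant cells in control and 5 in photoconversion, so its part in the tally is weak for every member.

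Cells also differed between classes in their RNA make-up. The nuclear transcript Malat1 was a median 0.288% of UMIs in Cst7-dominant and 2.53% in P2ry12-dominant control cells, and 0.458% and 2.74% in photoconversion. It was under 0.1% in 44.4% and 9.66% of control cells and in 36.9% and 9.02% of photoconversion cells. Ribosomal protein genes took a median 25.0% and 9.03% of UMIs in control and 25.3% and 13.1% in photoconversion. Among cells with Malat1 at 0.1% or more, the class ratios were close to those above: 0.237 and 0.419 for Il10ra, 0.367 and 0.313 for Il6ra, 0.236 and 0.337 for Il16, 0.528 and 0.241 for Tnfrsf1b, and 0.722 and 0.536 for Il10rb, control first. For Il1a they were 0.693 (0.451 to 1.07) and 0.348 (0.202 to 0.597), and for Il18 0.664 (0.400 to 1.10) and 0.431 (0.238 to 0.785). This choice of cells widened the gap in depth between the classes. Median UMIs of Cst7-dominant and P2ry12-dominant cells were then 10258 and 2366 in control, and 11525 and 2908 in photoconversion. RNA make-up and depth are therefore not told apart by it.

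**Figure D4:**
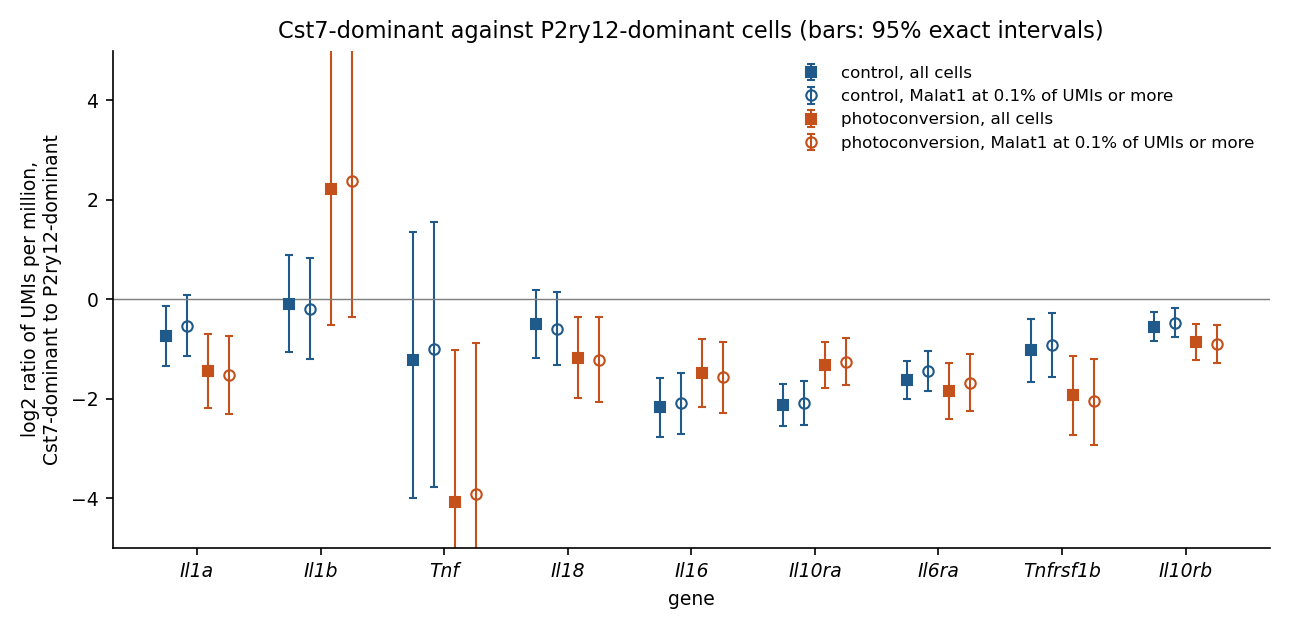
The log2 ratio of CPM in Cst7-dominant to P2ry12-dominant cells (y axis) for each gene, in all cells (squares) and in cells with Malat1 at 0.1% of UMIs or more (circles), for control (blue) and photoconversion (orange), with 95% exact intervals cut off at the edges of the axis. For Il10ra, Il6ra, Il16, Tnfrsf1b and Il10rb all 4 points of a gene lie below 0 with their intervals.

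As a guide to free RNA in the droplets, cells with more markers of other brain cell types than of microglia were taken. There were 13 in control (median 1434 UMIs) and 11 in photoconversion (749 UMIs). Free RNA and mRNA made by these cells themselves could not be told apart. Il10rb was found in 4 of 13 (30.8%, 9.09% to 61.4%) and 2 of 11, Il10ra in 2 of 13, and Il1b, Il18 and Il6ra in 1 of 13 each. Il16 was found in 1 of 11, and the remaining members and libraries had 0. For 0 of 13 this allows a share of up to 23.1% by 3 counts of the total, the limit used for a share of 0. By the exact interval it allows up to 24.7%. In control 1 of these cells held all 4 Il18 UMIs, and 1 held 5 of the 8 Il10rb UMIs. With so few cells, and with their own mRNA not told apart, these shares do not show how much of the members' detection is background. Among the barcodes under the gene minimum, 1340 in control and 1608 in photoconversion, Il1b had 1 UMI and 0, and Tnf 0 in each. These barcodes summed to only 146809 and 124075 UMIs. Exact intervals reached 38.0 and 29.7 CPM for Il1b and 25.1 and 29.7 CPM for Tnf. These ends lie above the levels in kept cells, so absence from these barcodes is not shown. The other 7 members were found there at levels whose intervals mostly overlapped those of the kept cells. Il10ra was at 102 CPM (57.2 to 169) in control, against 105 CPM (92.3 to 119) in kept cells, and Il10rb at 116 CPM (67.5 to 185) against 173 CPM (156 to 190). Il18 was at 61.3 CPM (28.0 to 116) in control and 96.7 CPM (49.97 to 169) in photoconversion, against 33.0 CPM (26.2 to 41.1) and 30.8 CPM (23.3 to 40.0) in kept cells, so that in photoconversion it was higher in these barcodes. Il6ra in control, at 40.9 CPM (15.0 to 89.0) against 103 CPM (90.8 to 117), and Il10rb in photoconversion, at 56.4 CPM (22.7 to 116) against 153 CPM (135 to 172), were lower there.

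Between the treatments, Il1b and Il6ra were the members that stood furthest apart, both lower in the photoconversion library. Over all kept cells 8 members had at least 50 UMIs in the 2 sums (all but Tnf), of which 2 were at least 1.5-fold lower and 0 higher. Of 6256 genes counted likewise, 6.51% were lower and 3.1% higher, 9.61% in all. The Il6ra ratio was 0.635 (0.506 to 0.793), from 103 CPM (90.8 to 117) in control to 65.5 CPM (54.3 to 78.4), and the 2 intervals did not overlap. The other ratios were 0.880 for Il1a (0.635 to 1.21), 0.934 for Il18 (0.652 to 1.33), 0.816 for Il16 (0.612 to 1.08), 0.872 for Il10ra (0.713 to 1.06), 0.811 for Tnfrsf1b (0.577 to 1.13) and 0.884 for Il10rb (0.757 to 1.03), all with intervals that include 1. The median log2 ratio of the 9 members was -0.20, beside -0.067 over all genes counted. The mix of classes differed between the libraries, with 37.3% Cst7-dominant cells in control and 49.5% in photoconversion, and its part in these values was not tested beyond the comparisons within classes.

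Within Cst7-dominant cells 2 of 7 counted members were at least 1.5-fold lower in photoconversion, Il6ra at 0.624 (0.430 to 0.894) and Tnfrsf1b at 0.667 (0.389 to 1.12), and 0 were higher. Of 4481 genes, 5.04% were lower and 4.26% higher, 9.31% in all. With each cell thinned to 1000 UMIs the log2 ratios of Il6ra and Tnfrsf1b turned to 0.37 and 0.66, from 8 and 8 UMIs of Il6ra and 4 and 5 of Tnfrsf1b. Without the 5% deepest cells of each library the count was 1. Il10ra was on the other side, at 1.39 (1.004 to 1.93), and without the cells with monocyte or border macrophage markers its interval, 0.9996 to 1.94, included 1. Within P2ry12-dominant cells 0 of 7 counted members passed the fold in either direction, against 8.68% lower and 3.92% higher of 3089 genes, 12.6% in all, and Il6ra was at 0.730 (0.536 to 0.985), or 0.769 (0.565 to 1.04) without the marker cells. Il1b, under the UMI minimum in each class, was at 0.560 (0.264 to 1.13) in Cst7-dominant and 0.112 (0.00268 to 0.723) in P2ry12-dominant cells, the latter from 1 UMI against 16. The median log2 ratio was -0.43 in Cst7-dominant cells (all genes -0.013) and 0.069 in P2ry12-dominant cells (all genes -0.059).

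**Figure D5:**
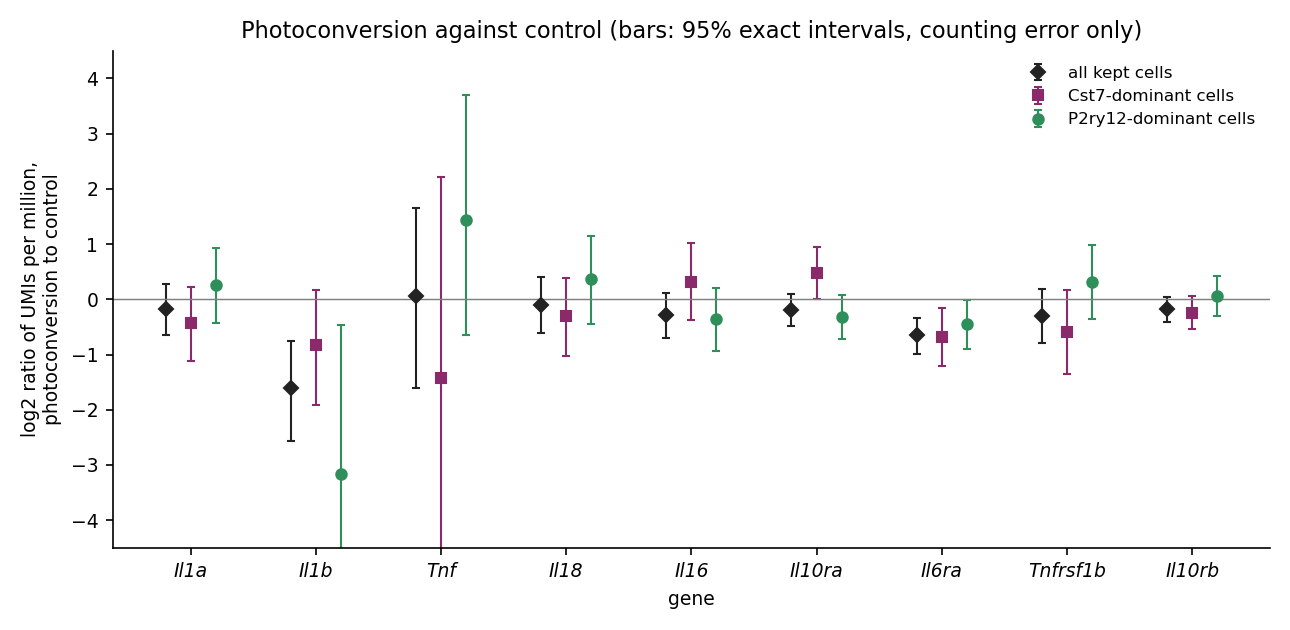
The log2 ratio of CPM in photoconversion to control (y axis) for each gene in all kept cells (diamonds), Cst7-dominant (squares) and P2ry12-dominant cells (circles), with 95% exact intervals for counting error, cut off at the lower edge. The 3 Il6ra points lie at ratios of 0.635, 0.624 and 0.730, each with its interval below 0 on the log2 axis in these cells, marker cells included, and the Il1b point of all kept cells at 0.328.

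The surrounding pathway was read from 9 lists of 158 genes. Among 29 other interleukins and TNF-family cytokines, Il10, Il12a, Il12b, Il23a, Il4, Il13, Il17a, Ifng, Ifnb1, Csf2, Csf3 and Lif had 0 UMIs in both libraries. For Il10, the ligand of the IL-10 receptor, 0 of 555 and 0 of 317 cells allows a share of cells with a UMI of up to 0.541% and 0.946% by the same limit of 3 counts. Il6, the ligand of Il6ra, had 12 UMIs in 11 control and 15 UMIs in 10 photoconversion cells, and Il1rn, the IL-1 receptor antagonist, 6 and 4 UMIs. Of the 8 counted members of that list, 0 were 1.5-fold apart between treatments. Between classes the list was split: Csf1, the ligand of the receptor that microglia need to survive and a marker of the disease-associated state, was higher in Cst7-dominant cells, with ratios of 8.06 (4.69 to 15.0) and 5.52 (3.01 to 11.3) in control and photoconversion. Mif, a macrophage cytokine, was higher at 3.32 (2.89 to 3.82) and 4.29 (3.50 to 5.30), and Tgfb1, which maintains the homeostatic state, lower at 0.632 and 0.627.

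Many other cytokine receptors had lower levels in Cst7-dominant cells. Of 18 counted in control 10 were at least 1.5-fold lower and 1 higher, with a median log2 ratio of -0.92, beside 32.2% lower and a median of -0.29 over all genes. Of 16 in photoconversion 9 were lower and 1 higher, with a median of -0.81, beside 27.6% lower and a median of -0.17. A ratio above 1 was found for 3 of the 18 and 4 of the 16. Ifngr1, a chain of the interferon gamma receptor, was at 0.211 (0.182 to 0.243) and 0.241 (0.202 to 0.286), and Tgfbr1 at 0.439 and 0.488. Between treatments 0 of 18 passed the fold, and Ifngr1 was at 0.734 (0.661 to 0.814) over all kept cells. Receptors of IL-1 and IL-18 were scarce: Il1r1, which binds IL-1, had 4 and 8 UMIs, its partner Il1rap 11 and 10, and Il18r1 0 in both libraries.

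Inflammasome and processing genes were lower in Cst7-dominant cells for 4 of 8 counted in control and 5 of 8 in photoconversion, with 0 higher in each. For this and the following lists the shares of all genes lower by that fold are again 32.2% and 27.6%, and with so few genes counted per list nothing is read from the difference. Casp8, a protease of cell death and cytokine processing, was at 0.378 (0.271 to 0.523) and 0.511 (0.330 to 0.800), whereas Pycard, the inflammasome adaptor, was at 0.871 and 1.04. Of the NF-kB subunits and inhibitors, 4 of 7 were lower in control and 1 of 5 in photoconversion, where 1 was higher (Nfkbib). Nfkbia, the feedback inhibitor of NF-kB, was at 0.296 (0.215 to 0.404) and 0.220 (0.148 to 0.323). Adaptors and kinases of IL-1 and TNF signalling were lower for 4 of 5 and 2 of 4, and IL-6 and IL-10 signalling genes for 0 of 4 and 0 of 4, with 0 higher in both lists.

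NF-kB dependent chemokines went the other way in part. Ccl3 was higher in Cst7-dominant cells at 2.53 (2.25 to 2.85) and 5.96 (4.81 to 7.47), and Ccl4 at 2.90 (2.53 to 3.34) and 1.64 (1.40 to 1.94). Ccl5 was lower in control, at 0.158 (0.0985 to 0.247). Over all kept cells 2 of 7 chemokines were at least 1.5-fold higher in photoconversion and 1 lower, beside 3.1% and 6.51% of all genes. Ccl2 was higher at 3.67 (2.03 to 6.96), from 44 UMIs in 7 photoconversion cells and 16 UMIs in 12 control cells. Cxcl10 was higher at 24.2 (14.2 to 44.9), from 254 UMIs in 5 photoconversion cells and 14 UMIs in 4 control cells. With UMIs clustered in so few cells, these intervals too are too narrow even for counting error. Ccl5 was the lower one, at 0.581, with 124 UMIs in 23 control and 54 UMIs in 18 photoconversion cells. Between treatments Tnfaip3, an inhibitor of NF-kB activation, was higher at 1.89 (1.09 to 3.33) and Ripk1, a kinase at the TNF receptor, lower at 0.496 (0.261 to 0.899), among 11 counted adaptors and kinases with 1 higher and 2 lower. Ptpn11 was the 1 of 6 IL-6 and IL-10 signalling genes past the fold, at 1.64 (0.948 to 2.87).

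Genes known to be induced while tissue is taken apart were read as well. Of 12 counted immediate-early genes 9 were below a ratio of 1 in photoconversion and 1 was at least 1.5-fold lower, Klf2 at 0.409 (0.256 to 0.636), with a median log2 ratio of -0.22. Over all genes 6.51% were lower by that fold and 40.4% had a ratio above 1, so that the fold count of this list is near the background. Fos had 16 UMIs in control and 0 in photoconversion, Dusp1 42 and 7, and Nr4a1 21 and 1. These genes were under the UMI minimum and were named after their values were seen. The others of the list under it were Fosb at 4 and 0, Egr1 at 11 and 9, and Egr3 at 1 and 2. Among the counted genes, Ier2 was at 42 and 40 and Ier3 at 34 and 28. A fall of the whole list is therefore not shown. Heat shock genes were below 1 for 5 of 5 and past the fold for 2, with a median of -0.56 and Hspa8 at 0.677 (0.626 to 0.731). Their part in the lower Il1b of the photoconversion library was not tested.

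Across kept cells the genes whose levels were most like the members', by Pearson's r of log-scaled UMIs within each library, were weakly correlated, with the lower r of the libraries between 0.14 and 0.24. They were Malat1, Lpcat2 and P2ry12 for Il10ra, Ecscr, Tmem119 and Tmem173 for Il6ra, Prkca, Zfhx3 and Tanc2 for Il16, and Cyba, Malat1 and Tmed9 for Il10rb. For the rest they were Kdm3b, Malat1 and Mtdh for Tnfrsf1b, Rbm47, Zswim8 and Ndufa8 for Il1a, and Mapkap1 and Hadha for Il18. These were taken from 5692 genes, the cells of a library share its depth and free RNA, and P2ry12 also defines the classes. Il1b and Tnf were in under 5% of cells and were not compared.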

How the data were processed

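Droplet single-cell libraries of 2 pools of sorted cortical cells were used. What the authors deposited are UMI counts for each gene in each barcode, without normalization. The submitters' processing notes name bcl2fastq, Cell Ranger and the build mm10, and per the file headers Cell Ranger was version 3.0.2. The filter, the split by Cst7 and P2ry12 and the 9 genes follow a rule that was set, like the gene lists and markers, with earlier results of these data known. Of the list and marker genes, 1 marker had no match and is not analysed here.

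UMIs were summed over cells and scaled to CPM with Python 3.11.15, numpy 2.4.6, scipy 1.17.1 and pandas 2.3.3. Poisson, Clopper-Pearson and conditional binomial intervals (95%) cover counting error only, since UMIs of 1 library do not show the spread between animals. Log2 ratios had 0.5 UMIs added to each sum. Genes with at least 50 UMIs in the 2 sums were counted, and a fold of 1.5 in size was called. Shares were also computed after thinning each cell to 1000 UMIs (seed 1). Doublets were not called, and leaving out the 5% deepest cells was an alternative. The ratio and its interval were tested on simulated Poisson sums, which hold no clustering of UMIs within cells. Named were all 9 members, per list the 2 most abundant genes and the 2 with the largest ratio, a few further genes (such as Il6, Il1rn, Il6st, Tnfrsf1a, Il1r1, Il1rap, Fos, Dusp1, Nr4a1 and those at 0) chosen after their values were seen, and the 3 genes most like each member, and 2 genes that this rule names are not reported here. Alternatives were edgeR 4.0.16 TMM and DESeq2 1.42.0 size factors as scalings only, other cell filters, a stricter class rule, other folds and minimums, thinning, equal weight per cell, leaving out rich or deep cells and, added after seeing the data, leaving out cells with little Malat1 or with markers of other cells.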

Additional observations from a re-analysis of the deposited data

Results flagged for a closer look

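For 6 members the log2 ratio of photoconversion to control had opposite signs in the 2 classes of cells, and the difference between the classes was not tested. Il1a was at -0.43 in Cst7-dominant and 0.27 in P2ry12-dominant cells, Il18 at -0.30 and 0.37, Tnfrsf1b at -0.57 and 0.32, and Il10rb at -0.24 and 0.069. The opposite order was seen for Il16, at 0.32 and -0.35, and for Il10ra, at 0.48 and -0.31. Of these 12 values, only that of Il10ra in Cst7-dominant cells had a counting interval that excluded 0 (0.0064 to 0.95), and it did not without the cells with monocyte or border macrophage markers. The Il1a value in P2ry12-dominant cells turned negative without the cells with monocyte or border macrophage markers, at a CPM ratio of 0.744 (0.413 to 1.29), and the Il18 ratio there was 1.02 (0.552 to 1.83).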

How the results depend on the processing

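No paired analysis was possible because each group is 1 library. The limits of these data are the lack of replicates, the low UMI counts of Il1b and Tnf, and a depth and Malat1 share that move with the class, whose part was not tested beyond the alternatives given.

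Of the members' log2 ratios under the alternatives, 529 of 576 kept their sign within their counting interval, 16 kept it outside, and 31 changed sign, 14 after thinning each cell to 1000 UMIs, which left few UMIs per member, and 17 under other settings. Of the sign changes, 28 were of members short of the fold or under the minimum of 50 UMIs. Among these was Tnf between the classes in control, past the fold at -1.17 but under that minimum, and at 1.93 after thinning. The other 3 were of members past the fold that met the minimum, and all came from thinning. Photoconversion to control in Cst7-dominant cells was then 0.37 for Il6ra and 0.66 for Tnfrsf1b. Cst7-dominant to P2ry12-dominant cells of photoconversion was then 0.40 for Il1a. The median log2 ratio of photoconversion to control after thinning was -0.49 in all kept cells, 0.37 in Cst7-dominant and -0.40 in P2ry12-dominant cells.

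Counts of members past the fold in all kept cells (2) were 0 after thinning and 1 with cells weighed equally, with a minimum of 100 UMIs or with a fold of 2. In Cst7-dominant cells (2) they were 1 with TMM scaling, without the 5% deepest cells or with a minimum of 100 UMIs, and 0 after thinning or with a fold of 2. Between classes, the count in control (5) was 3 after thinning or with a minimum of 100 UMIs. In photoconversion (7) it was 0 after thinning and 3 with a minimum of 100 UMIs. The minimum of 50 UMIs was kept after thinning, which left few UMIs per member. Members could then go uncounted whatever their ratio, so the counts after thinning do not show whether a difference was lost. Other counts of members were within 1.5 times. Il6ra and Il1b over all kept cells were lower in photoconversion under all 12 alternatives, with ratios of 0.623 to 0.740 and 0.138 to 0.481. Il10ra, Il6ra, Il16, Tnfrsf1b, Il18 and Il10rb were lower in Cst7-dominant cells of both libraries under all 13 alternatives, while Il1b in control changed sign under 8 of 13.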
